A study of Mus musculus with 37 samples.

Results

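The C-type lectin receptors followed here were 8 genes, Clec4e, Clec4d, Clec4n, Clec7a, Clec5a, Clec12a, Clec4a2 and Clec4a3, taken by symbol from the 24016 genes of an RNA-seq table of mouse bone marrow-derived macrophages (BMDMs). All 8 were among the genes analyzed, which are the well-expressed ones that the shares of all genes below refer to. The study asked how loss of the clock protein Bmal1, encoded by Arntl, alters the course of the inflammatory response. BMDMs were grown with M-CSF for 6 days from the marrow of male C57BL/6J mice (WT) or of male Arntl-/- mice made on a C57BL/6 background, aged 6 to 9 weeks. The study describes the WT mice both as littermates and as mice of a supplier, so their origin is unclear. Cells of each genotype were left unstimulated (0 h) or treated with the TLR4 ligand Kdo2-Lipid A (KLA), the membrane anchor of endotoxin with its first sugars, for 6, 24 or 48 h. PolyA RNA was sequenced in 8 libraries, 1 for each genotype and time, so no difference at a single time has a replicate check or a p-value.

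C-type lectin receptors sit on the surface of myeloid cells and bind sugars, lipids or material from dead cells through a lectin-like domain. The activating members signal through ITAM motifs, carried by partner adaptors such as the Fc receptor gamma chain (Fcer1g) and DAP12 (Tyrobp) or, in Dectin-1, by a related motif in the receptor's own tail, and they recruit the kinase Syk and then the Card9, Bcl10 and Malt1 complex. The inhibitory members carry an ITIM motif that recruits phosphatases such as SHP-1 (Ptpn6). Mincle (Clec4e) is known as a gene that macrophages induce after TLR4 stimulation, and C/EBPb has been described as one of its regulators.

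The libraries held between 8.59 M and 27.0 M reads on genes, with the most in WT cells at 6 h. Levels are given as scaled FPKM, which is the deposited FPKM (fragments per kb of exon, here per 10000000 reads) divided by a size factor for each library, and which is per length and so can be set side by side between genes. Intervals are 95% intervals that cover the counting of reads only. They treat reads as independent, although reads came in pairs, and may be too narrow. Arntl was at 34.3, 32.3, 35.6 and 38.7 scaled FPKM in WT cells at 0, 6, 24 and 48 h and at 13.9, 11.3, 18.8 and 20.2 in Arntl-/- cells, so all Arntl-/- libraries lay below all WT libraries. As a check of the KLA label, Nos2 stood at 11.9 and 273 scaled FPKM at 0 and 48 h in WT and at 31.5 and 523 in Arntl-/- libraries, and Il1b at 46.2 and 428 and at 92.1 and 699. All 8 macrophage markers were present, with Lyz2 between 7561 and 21812 scaled FPKM. Markers of T and B cells (Cd3e and Cd3g listed at 0 in all libraries, Cd79b the highest) summed to at most 60.2, and those of NK cells (Ncr1 the highest) to at most 1.16.

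All 8 receptor genes lie on chromosome 6 of the mm9 genome. Clec4a3 (122902533 to 122919896, plus strand), Clec4a2 (123073334 to 123094017, plus), Clec4n (123179861 to 123197042, plus), Clec4d (123212125 to 123225286, plus) and Clec4e (123231807 to 123239889, minus) belong to the Dectin-2 group, a run of 9 lectin genes over 368 kb. Clec12a (129300262 to 129315321, plus) and Clec7a (129411609 to 129422795, minus) lie together elsewhere on the chromosome, and Clec5a (40524897 to 40535804, minus) stands apart. The GENCODE vM1 models gave each member 6 or 7 exons and no other gene over its span. Reads were counted on exons of both strands. In 7 members no window of 50 bases of the coding transcripts was found in a coding transcript of another gene. In Clec4a2 6.49% of the windows were, with its neighbours Clec4a4 and Clec4b1 among the 159 other genes, so that its level is uncertain by reads that could belong elsewhere.

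The 250 bases before the start of 4 of the genes are shown, read from mm9 on the strand of the gene. Clec4e, Clec4d and Clec4n are the neighbours with the highest levels at 48 h, and Clec12a, which varied least on the scaled values, is set beside them. Capitals mark the motifs searched, which were the E-box CACGTG, C/EBP TTGCNNAA, AP-1 TGANTCA, PU.1 GAGGAAGT, kappaB GGG(A/G)NN(C/T)(C/T)CC and TATAAA. The kappaB motif was searched on the strand of the gene only, and the others on both strands.
Clec4e (chr6:123239890-123240139, minus strand): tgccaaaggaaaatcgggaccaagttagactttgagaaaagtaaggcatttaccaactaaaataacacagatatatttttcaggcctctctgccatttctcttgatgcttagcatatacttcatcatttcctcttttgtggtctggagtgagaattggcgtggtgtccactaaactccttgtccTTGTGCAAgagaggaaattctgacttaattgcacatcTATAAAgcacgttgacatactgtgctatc
Clec4d (chr6:123211875-123212124, plus strand): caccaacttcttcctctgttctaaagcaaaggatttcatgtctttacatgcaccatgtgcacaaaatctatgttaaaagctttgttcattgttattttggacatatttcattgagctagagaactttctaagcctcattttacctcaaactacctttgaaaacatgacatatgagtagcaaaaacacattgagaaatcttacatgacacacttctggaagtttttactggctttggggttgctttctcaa
Clec4n (chr6:123179611-123179860, plus strand): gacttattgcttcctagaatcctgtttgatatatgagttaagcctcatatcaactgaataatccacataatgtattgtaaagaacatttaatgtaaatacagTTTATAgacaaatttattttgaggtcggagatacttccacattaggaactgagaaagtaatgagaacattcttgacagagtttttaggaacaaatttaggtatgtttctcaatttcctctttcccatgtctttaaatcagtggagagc
Clec12a (chr6:129300012-129300261, plus strand): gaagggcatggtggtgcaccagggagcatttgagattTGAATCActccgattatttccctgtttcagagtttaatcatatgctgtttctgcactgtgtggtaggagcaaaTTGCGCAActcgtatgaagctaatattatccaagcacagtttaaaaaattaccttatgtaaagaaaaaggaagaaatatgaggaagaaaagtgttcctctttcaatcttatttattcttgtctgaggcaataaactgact
The Clec4e sequence held a C/EBP motif that begins 66 bases before the start and TATAAA 29 bases before it. The Clec12a sequence held a C/EBP motif that begins 140 bases before the start and an AP-1 motif 213 bases before it. Clec4n held TATAAA on the opposite strand, 148 bases before the start, and Clec4d held none of the 6 motifs as searched. Of 23951 genes with such a sequence, 8.77% held the C/EBP motif (2 of the 8 members), 6.15% AP-1 (1 member), 12.0% TATAAA (3 members), 6.58% the E-box, 5.39% kappaB and 2.30% PU.1 (no member each). For kappaB the share and the absence from the members hold for the strand of the gene only. A match is a match of letters only and was not tested as a binding site.

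Clec4e, Clec4d and Clec4n, which encode the activating receptors Mincle, MCL and Dectin-2, were higher 48 h after KLA than at 0 h in both genotypes. Clec4e was at 547, 847, 1201 and 1364 scaled FPKM in WT cells at 0, 6, 24 and 48 h and at 578, 1151, 1256 and 1547 in Arntl-/- cells. Its lowest level was at 0 h and its highest at 48 h in each genotype, and each Arntl-/- library lay above the WT library of the same time. In WT cells the level was 1.55-fold that at 0 h by 6 h (counting interval 1.49 to 1.61), 2.20-fold by 24 h and 2.49-fold by 48 h (2.38 to 2.61). In Arntl-/- cells it was 1.99-fold by 6 h (1.92 to 2.07), 2.17-fold by 24 h and 2.68-fold by 48 h (2.57 to 2.79). With a correction for expression level, described with the genotype ratios, the log2 changes at 6, 24 and 48 h were 1.01, 1.03 and 0.99 in WT and 0.80, 0.97 and 0.94 in Arntl-/- cells. The change at 6 h was then larger in WT than in Arntl-/- cells, and the level at 48 h no longer the highest. Mincle recognises mycobacterial glycolipids, and its gene was the one member at least 1.5-fold above its level at 0 h at all 3 later times in both genotypes. Because these are bulk samples, more cells that express a gene and more RNA per cell cannot be told apart, here or in any result that follows.

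**Figure D1:**
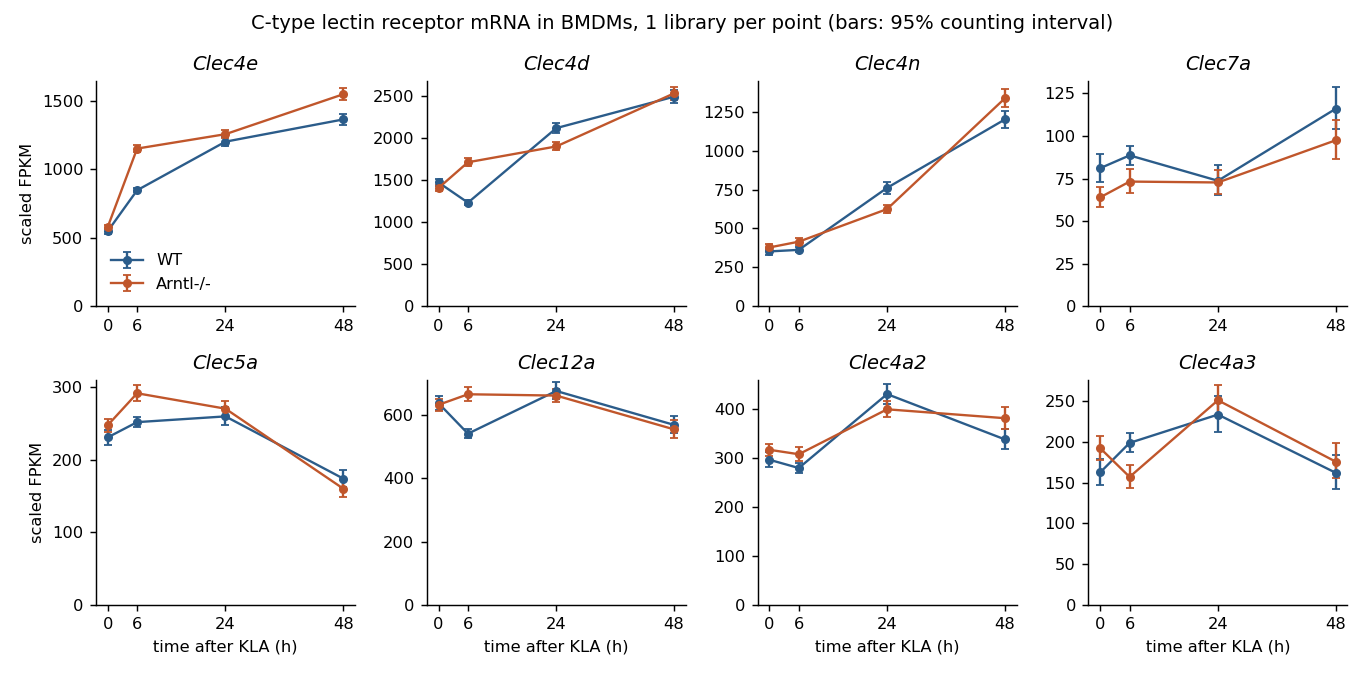
Scaled FPKM of the 8 receptor genes (vertical axes from 0, each with its own range) against hours after KLA, in WT (blue) and Arntl-/- (orange) BMDMs. Each point is 1 library and the bars are 95% intervals for counting only. Clec4e, Clec4d and Clec4n stand highest at 48 h in both genotypes, and Clec4n reaches 1200 in WT and 1336 in Arntl-/- cells.

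Clec4n was at 352, 362, 761 and 1200 scaled FPKM in WT cells and at 377, 415, 624 and 1336 in Arntl-/- cells. Dectin-2, which binds mannans of fungi, thus had a later course than Mincle, with 6 h levels 1.03-fold (0.952 to 1.11) and 1.10-fold (1.02 to 1.18) those at 0 h. With the correction for expression level the log2 changes at 6 h were 0.28 in WT and -0.01 in Arntl-/- cells, in place of 0.04 and 0.14. At 24 h Clec4n was 2.16-fold (1.99 to 2.35) its level at 0 h in WT cells and 1.65-fold (1.54 to 1.77) in Arntl-/- cells. At 48 h the folds were 3.41 (3.15 to 3.69) and 3.54 (3.31 to 3.79), the highest among the 8 members. From 24 to 48 h alone the level was 1.58-fold higher in WT and 2.14-fold higher in Arntl-/- cells.

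Clec4d had the highest level of the 8 in every library. It was at 1475, 1234, 2123 and 2498 scaled FPKM in WT cells and at 1409, 1716, 1904 and 2537 in Arntl-/- cells. MCL pairs with Mincle, and the WT library at 6 h was the lowest of its 8 values. At 48 h Clec4d was 1.69-fold (1.62 to 1.77) its level at 0 h in WT cells and 1.80-fold (1.73 to 1.87) in Arntl-/- cells. This change rested on the scale used, since the same correction left log2 changes of 0.29 and 0.17 at 48 h, below 1.5-fold.

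Clec7a encodes Dectin-1, the receptor for fungal beta-glucan, and had the lowest level of the 8 in every library. It was at 81.1, 88.6, 73.7 and 116 scaled FPKM in WT cells, from 280 to 982 reads, and at 63.9, 73.2, 72.7 and 97.4 in Arntl-/- cells. The highest level in each genotype was at 48 h, at 1.43-fold (1.23 to 1.66) the level at 0 h in WT and 1.52-fold (1.31 to 1.77) in Arntl-/- cells. The log2 change in Arntl-/- cells at 48 h, 0.61, was 0.43 and thus below 1.5-fold in values as deposited. With the level correction Clec7a was past 1.5-fold at 48 h in both genotypes, at log2 changes of 0.61 in WT and 0.74 in Arntl-/- cells, so that among the 3 members higher in WT cells at 48 h it took the place of Clec4d.

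Clec5a encodes MDL-1, which signals through DAP12, and was lowest at 48 h. It was at 231, 252, 260 and 174 scaled FPKM in WT cells and at 248, 292, 271 and 160 in Arntl-/- cells. The level at 48 h was 0.754-fold (0.695 to 0.818) that at 0 h in WT cells and 0.647-fold (0.597 to 0.701) in Arntl-/- cells, and 0.670-fold and 0.593-fold that at 24 h. It was the one member past 1.5-fold in the lower direction, in Arntl-/- cells alone, and with upper-quartile scaling that log2 change of -0.63 became -0.54, below 1.5-fold. Whether the change of Clec5a differs between the genotypes was not tested.

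Clec12a encodes MICL, an inhibitory receptor that binds uric acid crystals and dead cells, and varied least among the members on the scaled values. It was at 638, 542, 677 and 570 scaled FPKM in WT cells and at 633, 667, 663 and 556 in Arntl-/- cells, a range of 1.25-fold over the 8 libraries. The lowest value was in the WT library at 6 h and the next lowest in the Arntl-/- library at 48 h. After the level correction its log2 changes at 48 h were -0.38 in WT and -0.50 in Arntl-/- cells, and its range over the libraries, 0.50 on the log2 scale, was above that of Clec4d (0.46).

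Clec4a2, which encodes the inhibitory receptor DCIR, was at 296, 279, 430 and 338 scaled FPKM in WT cells and at 317, 308, 399 and 381 in Arntl-/- cells. Its highest level was at 24 h in both genotypes, at 1.45-fold (1.36 to 1.56) and 1.26-fold (1.19 to 1.33) the level at 0 h. Clec4a3, another gene of the DCIR family, was at 163, 199, 234 and 162 scaled FPKM in WT cells and at 193, 157, 251 and 176 in Arntl-/- cells, from 251 to 1127 reads. It too was highest at 24 h in both genotypes, at 1.44-fold (1.25 to 1.65) and 1.31-fold (1.18 to 1.45) the level at 0 h, and at 48 h its counting intervals included the level at 0 h in both. Neither gene reached 1.5-fold in any comparison with 0 h.

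The order of the levels was stable at its ends. Clec4d was first and Clec7a last in all 8 libraries, and Clec4a2 was number 5 throughout. At 0 h Clec12a was second, ahead of Clec4e and Clec4n, in both genotypes, whereas at 48 h the order after Clec4d was Clec4e, Clec4n and Clec12a. The intervals of neighbours in the order overlapped for Clec5a and Clec4a3 at 24 and 48 h in both genotypes, for Clec4a2 and Clec5a in Arntl-/- cells at 6 h, and for Clec12a and Clec4n in Arntl-/- cells at 24 h. All other neighbours were apart by more than their counting intervals.

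Counted against 1.5-fold lines, 1 of the 8 members was higher than at 0 h in WT cells at 6 h (Clec4e), 2 at 24 h (Clec4e and Clec4n) and 3 at 48 h (with Clec4d), and none was lower. The share of all genes analyzed that was higher in WT cells was 4.31%, 7.94% and 12.7% for the 3 times in turn, and the share lower was 3.29%, 7.91% and 14.3%. In Arntl-/- cells 1 member was higher at 6 h (Clec4e), 2 at 24 h (Clec4e and Clec4n) and 4 at 48 h (with Clec4d and Clec7a), and 1 was lower at 48 h (Clec5a). There the share of all genes that was higher was 2.79%, 7.35% and 14.8% for the 3 times, and the share lower was 2.58%, 8.65% and 16.7%. The comparisons within a genotype share their 0 h library. The median log2 change of the members in WT cells was 0.08, 0.52 and 0.35 at 6, 24 and 48 h, beside -0.03, -0.00 and 0.00 for all genes, and in Arntl-/- cells it was 0.17, 0.36 and 0.44, beside 0.01, 0.02 and -0.01. With the level correction the member medians were 0.22, 0.45 and 0.20 in WT and 0.02, 0.25 and 0.16 in Arntl-/- cells. From 0 to 6 h 3 members (Clec4d, Clec12a and Clec4a3) changed in opposite directions in the genotypes, each beyond its counting interval, beside 20.7% of all genes. With the level correction the WT and Arntl-/- changes were 0.27 and 0.04 for Clec4d, 0.01 and -0.07 for Clec12a and 0.31 and -0.30 for Clec4a3. The dendritic cell markers summed to 70.0 and 63.8 scaled FPKM at 48 h in WT and Arntl-/- cells and to between 18.3 and 24.1 in the other libraries, through Itgax alone (65.1 and 59.1 at 48 h). Without Itgax the other dendritic cell markers summed to 10.1 at 0 h and 4.85 at 48 h in WT and to 10.6 and 4.73 in Arntl-/- cells, with Cd209a listed at 0 in all libraries. The macrophage markers summed to 20161 and 37621 at 0 and 48 h in WT and to 16992 and 33590 in Arntl-/- cells, and the stromal markers to 386 and 1074 and to 302 and 659. The part of these markers in the receptor levels at 48 h was not tested.

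**Figure D2:**
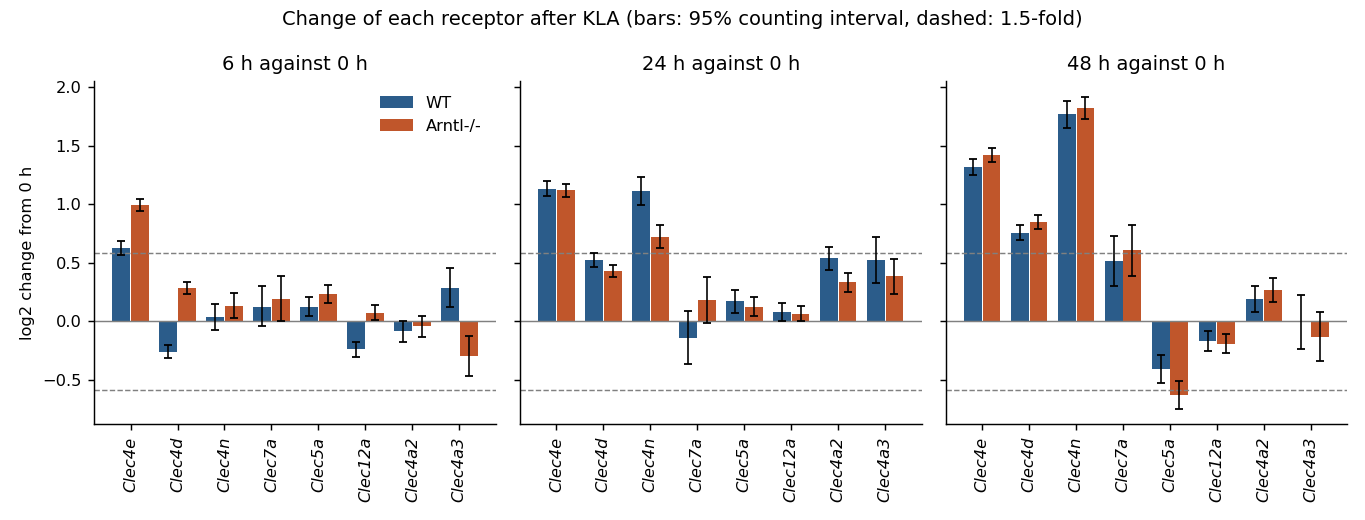
Log2 change of each receptor from 0 h (vertical axis, shared) at 6, 24 and 48 h after KLA in WT (blue) and Arntl-/- (orange) cells, with 95% counting intervals as error bars and dashed lines at 1.5-fold. At 48 h Clec4n (1.77 and 1.82), Clec4e (1.32 and 1.42) and Clec4d (0.76 and 0.85) stand above the upper line in both genotypes, Clec4d not after the correction for expression level.

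Between the genotypes no member differed by 1.5-fold at any of the 4 times. For 0, 6, 24 and 48 h in turn, the share of all genes analyzed that differed by that much was 3.77%, 3.66%, 4.81% and 9.18%. Over the members the median log2 ratio (Arntl-/- over WT) was 0.09, 0.20, -0.03 and 0.07 at 0, 6, 24 and 48 h, beside -0.02, 0.01, -0.00 and -0.02 for all genes. With the level correction the member medians were 0.19, -0.00, 0.06 and 0.11. The ratios farthest from 1 among the 32 were those of Clec4d and Clec4e at 6 h, and after the level correction given next they were those of Clec7a at 0 h and Clec4a3 at 6 h (log2 -0.38 and -0.36). Clec4d was 1.39-fold higher in Arntl-/- cells at 6 h (1.34 to 1.44) and Clec4e 1.36-fold (1.32 to 1.40), though the level correction turned the direction for Clec4d. At 24 h the ratios of Clec4d and Clec4e were 0.897 and 1.05. The level correction turned the 24 h ratio of Clec4d too, from log2 -0.16 to 0.08, and its 0 h ratio from -0.07 to 0.22. Of the other members, Clec12a was 1.23-fold (1.18 to 1.28), Clec5a 1.16-fold, Clec4n 1.15-fold (turned by the same correction) and Clec4a2 1.10-fold higher at 6 h, and Clec7a was at 0.826-fold (0.735 to 0.927) and Clec4a3 at 0.790-fold (0.707 to 0.881) the WT level.

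**Figure D3:**
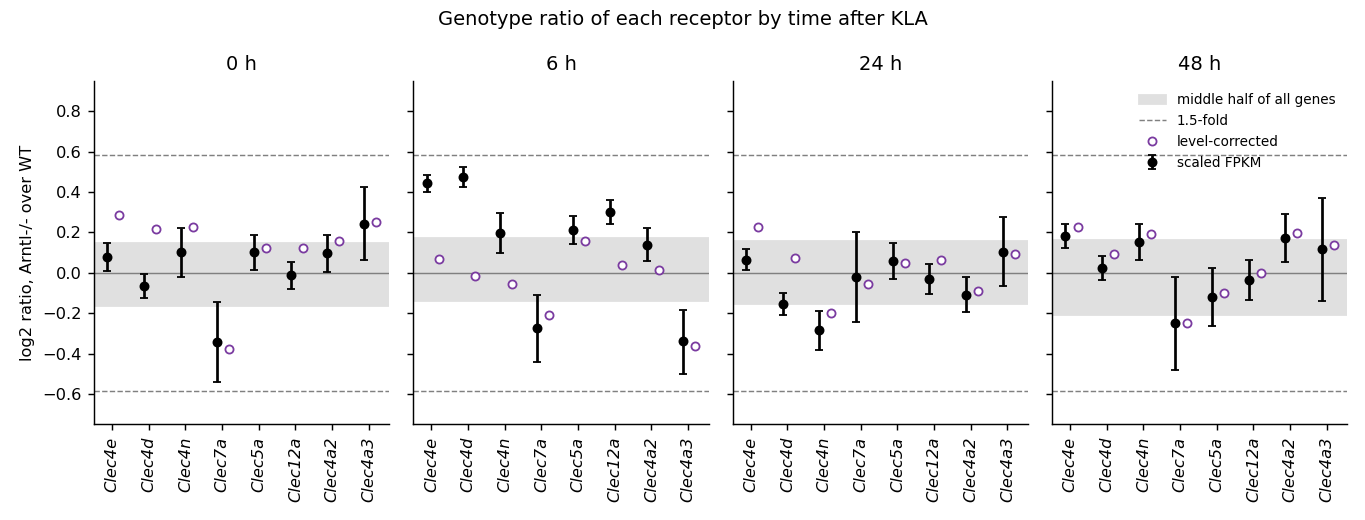
Log2 ratio of Arntl-/- to WT for each receptor at the 4 times, from scaled FPKM (black, 95% counting interval) and after the correction for expression level (open circles). The grey band is the interquartile range of all genes analyzed and dashed lines mark 1.5-fold, which no point reaches. At 6 h the black points of Clec4e and Clec4d (0.44 and 0.48) lie above the band and the open ones (0.07 and -0.02) within it.

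The WT library at 6 h also differed from the others in a way that touches these ratios. Counting was limited to 3 tags per position, and this library had 27.0 M reads, with 6.03 reads per exon base on Clec4d and 4.14 on Clec4e. The median of the 972 most highly expressed genes there was 0.36 below its mean over the 8 libraries on the log2 scale, and it was 0.31 and 0.25 above in the WT and Arntl-/- libraries at 48 h, which had the fewest reads (9.19 M and 8.59 M). Clec4d, Clec4e, Clec12a and Clec4n are among those 972 genes. Over the 8 libraries, in each of which all genes share 1 depth, the log2 level of Clec4d followed that median with r = 0.93, Clec4n with 0.85, Clec4e with 0.62 and Clec12a with -0.04, as a description only. For the members outside those 972 genes r was 0.57 (Clec7a), 0.53 (Clec4a2), -0.30 (Clec4a3) and -0.68 (Clec5a). A correction that subtracts from each library a smooth curve of its deviation against expression level gave log2 ratios at 6 h of 0.07 for Clec4e, -0.02 for Clec4d, 0.04 for Clec12a and -0.06 for Clec4n, in place of 0.44, 0.48, 0.30 and 0.20. The corrected ratios at 6 h of the less expressed Clec7a (-0.21) and Clec4a3 (-0.36) stayed near their uncorrected values of -0.27 and -0.34. Clec5a and Clec4a2, also outside those 972 genes, were at 0.16 and 0.01 in place of 0.21 and 0.14, for Clec4a2 a move beyond its counting interval. The part of depth in these differences was not tested.

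**Figure D4:**
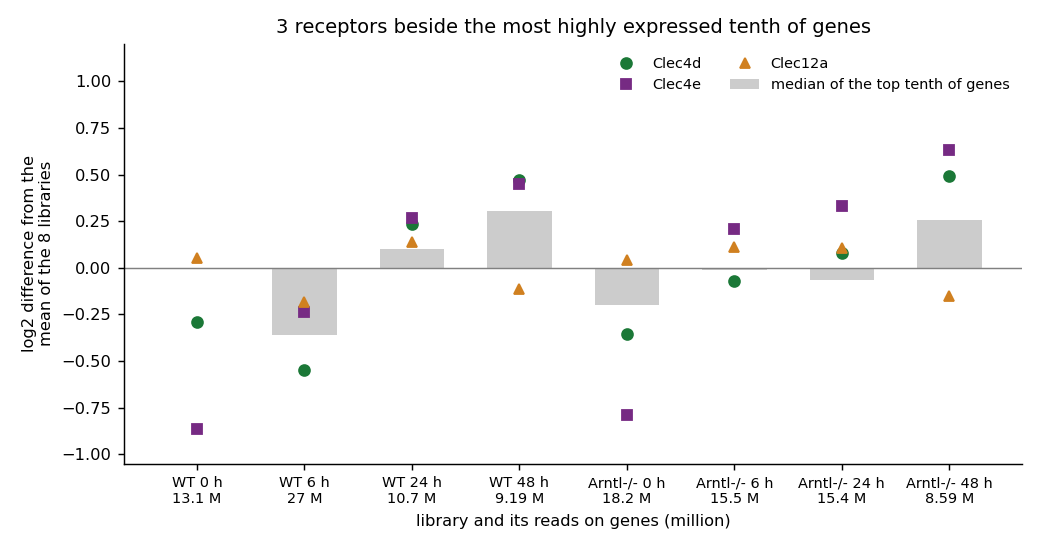
Log2 difference of each library from the mean of the 8 libraries (vertical axis) for the median of the 972 most highly expressed genes (grey bars) and for Clec4d, Clec4e and Clec12a (symbols), by library with its reads on genes (M). In the WT library at 6 h the bar is at -0.36 and all 3 receptors are below 0.

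Across the 4 times, Clec4e was higher in Arntl-/- cells at each one, with log2 ratios of 0.08, 0.44, 0.06 and 0.18, and it was the one such member, beside 7.82% of all genes, although Clec12a was above 0 at all 4 times too in values as deposited (beside 5.70% of all genes) and after the level correction (beside 7.88%), there with a ratio of 0.00 at 48 h, which is no difference. The ratios of Clec4e after the level correction were 0.28, 0.07, 0.23 and 0.23. Clec7a was lower at each time, with log2 ratios of -0.34, -0.27, -0.02 and -0.25, and it was the one such member, beside 7.53% of all genes. At 24 h its interval for the ratio, 0.845 to 1.15, included no difference, and without size factors that ratio was above 0.

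With the 4 times taken as pairs, each of 1 WT and 1 Arntl-/- library, the genotypes were also compared over all 8 libraries in a limma fit of genotype plus time, in which the spread of the ratio between times counts as error. Labels do not say whether libraries share animals, so the SE and p-values may not measure the spread between animals. Of all genes analyzed 0.381% had an adjusted p under 0.05, 20 higher and 17 lower in Arntl-/- cells, with Arntl at a mean log2 ratio of -1.16. Of the 8 receptors 0 passed, and 0 had an unadjusted p under 0.05, beside 8.77% of all genes. Clec7a was at a mean log2 ratio of -0.22 ± 0.11 (SE, limma adjusted p = 0.60), lower in 4 of 4 pairs, and Clec4e at 0.19 ± 0.12 (limma adjusted p = 0.74), higher in 4 of 4 pairs. The intervals for the mean ratio were -0.46 to 0.02 for Clec7a and -0.06 to 0.45 for Clec4e. Without the 6 h pair the mean log2 ratio was -0.20 for Clec7a and 0.11 for Clec4e. After the level correction Clec4e was at 0.20 ± 0.06, with an unadjusted p of 0.00438 in limma and an adjusted p of 0.24. It was the one receptor with an unadjusted p under 0.05, beside 9.96% of all genes, and again 0 receptors passed.

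The summed neutrophil markers ranged from 531 to 928 scaled FPKM in WT and from 865 to 1033 in Arntl-/- libraries, with Mpo listed at 0 in all libraries and Ly6g not analysed here. In the list S100a9, Ngp and Ltf were higher without Arntl at 0, 6 and 24 h, and Ngp and Camp at all 4 times. S100a8 was at 308, 282, 429 and 910 in WT and at 401, 514, 411 and 905 in Arntl-/- cells, and S100a9 at 164, 207, 148 and 10.1 and at 403, 428, 371 and 9.00, so that at 48 h S100a8 was at its highest and S100a9 at its lowest in both genotypes. Ngp was at 37.2, 33.3, 17.1 and 0 in WT and at 83.4, 55.2, 38.4 and 2.70 in Arntl-/- cells. Of the stromal markers Col1a1, the highest, Col1a2 and Col3a1 were lower without Arntl at each time. Col3a1 was at 80.4, 104, 125 and 187 in WT and at 43.4, 42.6, 46.9 and 89.7 in Arntl-/- cells. Dcn, at 16.8, 42.0, 29.3 and 62.3 in WT and 39.1, 34.6, 37.0 and 91.3 in Arntl-/- cells, was higher at 0, 24 and 48 h, and Lum at 0, 6 and 48 h. The part of these markers in the genotype ratios was not tested.

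Within the Dectin-2 group the 4 genes that are not members had their own levels. Clec4a1, at the Clec4a3 end, was between 779 and 1311 scaled FPKM, Clec4a4 between 18.2 and 38.1, Clec4b1 had between 1 and 13 reads and Clec4b2 at most 6 reads. The genes at 1.5-fold or more above 0 h at 48 h were thus the 3 adjacent ones at the Clec4e end, in both genotypes. Clec4a4 stood at log2 changes of 0.53 and 0.50 at 48 h, just under 1.5-fold, Clec4a1 at 0.25 and 0.44 and Clec4a2 at 0.19 and 0.27. With the correction for expression level Clec4d was below 1.5-fold, Clec4n and Clec4e remained above, and the changes of Clec4a1 turned to -0.09 and -0.07.

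**Figure D5:**
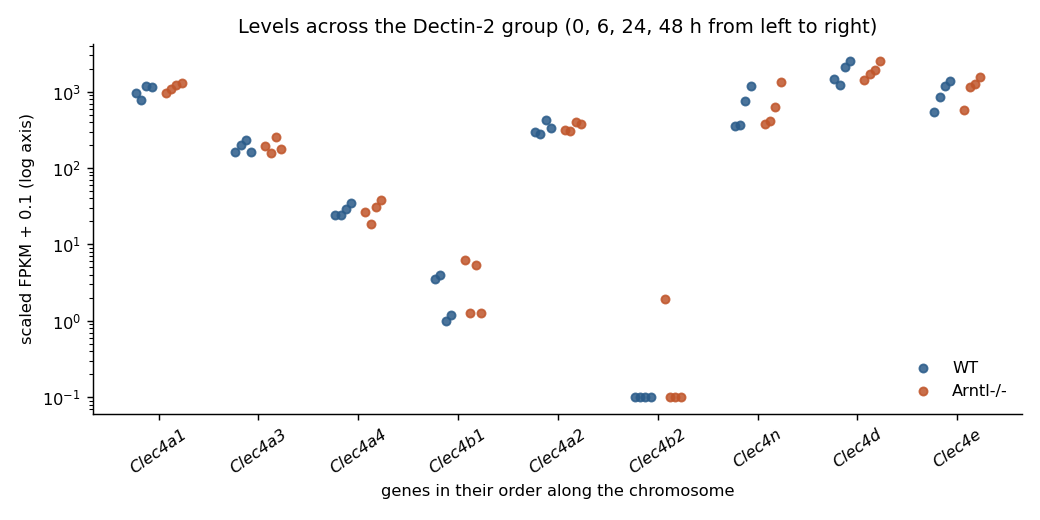
Scaled FPKM plus 0.1 (log axis) of the 9 genes of the Dectin-2 group in their order along the chromosome, with WT (blue) and Arntl-/- (orange) libraries at 0, 6, 24 and 48 h from left to right within each gene. Levels span from listed at 0 (Clec4b2) to 2537 (Clec4d in Arntl-/- cells at 48 h), and Clec4n, Clec4d and Clec4e end higher at 48 h than at 0 h.

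The signalling partners of the receptors were taken as a list of 27 genes, of which 26 were analyzed. Between the genotypes 1 of them, Cebpb, was past 1.5-fold, lower in Arntl-/- cells at 0 h and higher at 6 and 48 h, and at 24 h there was 0, beside 3.77%, 3.66%, 4.81% and 9.18% of all genes at the 4 times. With the level correction Src joined it at 0 h, at a log2 ratio of -0.60 in place of -0.54. Cebpb encodes the transcription factor C/EBPb. Cebpb was at 740, 485, 1141 and 992 scaled FPKM in WT cells and at 402, 886, 1164 and 1608 in Arntl-/- cells. Its log2 ratios for 0, 6, 24 and 48 h were -0.88, 0.87, 0.03 and 0.70. After the level correction they were -0.70, 0.53, 0.17 and 0.74, so that the ratio at 6 h was no longer past 1.5-fold.

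The adaptors Fcer1g and Tyrobp, through which Mincle, Dectin-2 and MDL-1 signal, were, like Clec4d, lowest in the WT library at 6 h. Fcer1g was at 2215, 1560, 2427 and 3062 scaled FPKM in WT cells and at 1858, 2298, 2063 and 3154 in Arntl-/- cells. Tyrobp was at 1920, 1274, 2213 and 2629 and at 1618, 1884, 1848 and 2880. Their log2 ratios of Arntl-/- to WT at 6 h were 0.56 for both and 0.03 and 0.06 after the level correction. Spi1, which encodes the myeloid factor PU.1, gave 0.44 and 0.02. Another adaptor, Hcst (DAP10), was below the level of the genes analyzed, with 62 to 132 reads and scaled FPKM of 131, 59.6, 125 and 107 in WT and 65.4, 119, 78.8 and 161 in Arntl-/- cells, lower without Arntl at 0 and 24 h and higher at 6 and 48 h by at least 1.5-fold.

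Against 0 h, 0 of the 26 genes were higher in WT cells at 6 h, 3 at 24 h and 2 at 48 h, beside 4.31%, 7.94% and 12.7% of all genes, and the numbers lower were 2 (Tyrobp and Cebpb), 1 and 2, beside 3.29%, 7.91% and 14.3%. After the level correction 0 were lower at 6 h, with Tyrobp at a log2 change of -0.04 and Cebpb at -0.27 in place of -0.59 and -0.61. For Arntl-/- cells the numbers higher at the 3 times were 1, 4 and 7, beside 2.79%, 7.35% and 14.8% of all genes, and the numbers lower 0, 1 and 1, beside 2.58%, 8.65% and 16.7%. Syk, the kinase at the start of the pathway, was at log2 changes of 0.61 in WT and 0.68 in Arntl-/- cells at 48 h, and at 0.32 and 0.24, below 1.5-fold, after the level correction. In the Card9 complex no gene was past 1.5-fold in any comparison, with Malt1 at a log2 change of 0.42 in WT cells at 6 h. After the level correction the counts at 48 h were 1 higher and 2 lower in WT and 3 higher and 0 lower in Arntl-/- cells.

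Of 49 other C-type lectin genes, 8 were among the genes analyzed (Clec2d, Clec4a1, Mrc1, Ly75, Colec12, Cd69, Cd72 and Cd93). Between the genotypes 1 was past 1.5-fold, Colec12 at 0 h, beside 3.77%, 3.66%, 4.81% and 9.18% of all genes at the 4 times. Colec12 was then at 29.6 scaled FPKM in WT and 19.6 in Arntl-/- cells. In values as deposited 0 of the 8 were past 1.5-fold at 0 h. With the level correction Colec12 was past it at 24 h too, at a log2 ratio of -0.61 in place of -0.58. Mrc1, the mannose receptor and a marker of alternatively activated macrophages, was at 1077, 645, 740 and 421 scaled FPKM in WT cells and at 857, 628, 546 and 310 in Arntl-/- cells, with its lowest level at 48 h in each. Ly75 (DEC-205) was at 36.4, 65.6, 64.6 and 67.4 in WT cells and at 46.3, 71.2, 79.3 and 73.2 in Arntl-/- cells, higher at every later time than at 0 h. At 48 h against 0 h, 4 of the 8 were higher (Clec2d, Ly75, Colec12 and Cd72) and 1 lower (Mrc1) in each genotype, beside 12.7% and 14.8% of all genes higher and 14.3% and 16.7% lower in WT and Arntl-/- cells. After the level correction Cd93 was also lower in both genotypes (-0.86 and -0.98), and Cd72 was no longer past 1.5-fold in Arntl-/- cells (0.53). Cd69 was highest at 6 h in both genotypes, at 58.5 and 62.5 scaled FPKM, and Cd93, expressed between 651 and 1081, was at a log2 change of -0.43 at 6 h in WT and 0.03 in Arntl-/- cells, and at -0.10 and -0.15 after the level correction.

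By Pearson r of log2 levels over the 8 libraries, in each of which all genes share 1 depth, Clec4d and Clec4n were the most alike pair of members (0.96), followed by Clec4e with Clec4d and with Clec4n (0.82 each), while Clec5a ran opposite to Clec7a (-0.80). Outside the members, Clec4e was most like Parp14 (0.99), Ptges (0.99) and Slc2a6 (0.98). Clec4d was most like genes that included Ly6e and Tpi1 (0.99 each) and Clec4n like Itfg3 (0.996), Lrpap1 (0.995) and Tbc1d9 (0.99). With r over 0.95 there were 212 genes for Clec4d and 148 for Clec4n, but 47 for Clec4e and none for Clec12a, so the closest genes of the first pair are 3 of many. Clec5a was most like Gtf2h1, Gle1 and Ifnar1 (0.99 each), Clec7a like Cd151 (0.97), Serping1 (0.96) and Uchl1 (0.95), and Clec12a like Fdft1 (0.92), Atad2b (0.91) and BC005561 (0.90). Clec4a2 was most like Csf2rb2 (0.99), Zfp106 (0.97) and Hbp1 (0.96), and Clec4a3 like Papss1 (0.97), Serinc5 (0.96) and Kdm3b (0.95).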

How the data were processed

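PolyA RNA from WT and Arntl-/- BMDMs was sequenced in 8 libraries, and 29 ChIP-seq and input samples of the series were not analysed here. The authors used STAR to align the read pairs to mm9 and HOMER to count tags over RefSeq exons (both strands, at most 3 tags per position) and deposited FPKM values per 10000000 reads. Of the value columns, 4 matched no sample and were not used, and 1 fragment of a line was left out. The product of FPKM and exon length came in whole steps of 1 read (100% of low values within 0.05), which gave reads, depth and counting intervals. These treat each read as an independent count, although reads came in pairs and tags per position were limited, so the intervals may be too narrow. Scaling used size factors by the median of ratios (0.918 to 1.13), and log2 ratios used a pseudocount of 0.1, which understates changes of low genes. Genes were analyzed if their scaled FPKM times kb reached 74.5 in a WT library, which keeps as many genes as the study did. With 1 library per condition no single time was tested. A limma 3.58.1 fit (R 4.3.3) of genotype plus time on log2 values, with a variance trend and Benjamini-Hochberg adjustment over all genes analyzed, took the 4 times as pairs and was added after the data were seen. Labels do not say whether libraries share animals. Genes named were the members, the 3 genes most alike to each, listed genes past 1.5-fold in the same direction at 2 or more times, the 5 of each list with the largest change at 6 h in WT cells, Arntl, Nos2, Il1b, and for each marker list the highest gene and any at 0. Syk, Cd72, Clec2d and the genes of the Dectin-2 group were added after their values were seen. Some genes that this rule names are not reported here. The members and lists were chosen with earlier results of these data known. Genome sequence and GENCODE vM1 models were on mm9. The steps were tested on simulated data. Plots were drawn with matplotlib 3.10.9 and calculations made with scipy 1.17.1, statsmodels 0.14.6, pandas 2.3.3 and numpy 2.4.6 in Python 3.11.15.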

Additional observations from a re-analysis of the deposited data

Results flagged for a closer look

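From 0 to 6 h, 3 receptors stood in opposite directions in the genotypes, each beyond its counting interval, as did 20.7% of all genes analyzed, and the difference was not tested because each condition had 1 library. For Clec4d the log2 change was -0.26 in WT and 0.28 in Arntl-/- cells, a difference of 0.54. After the correction for expression level the WT change was 0.27 and the Arntl-/- change 0.04. For Clec12a the changes were -0.24 and 0.07, a difference of 0.31, and 0.01 and -0.07 after the correction. For Clec4a3, which is less expressed, the changes were 0.29 and -0.29, a difference of -0.58, and 0.31 and -0.30 after the correction.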

How the results depend on the processing

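No change or ratio of a member past 1.5-fold reversed under values as deposited, upper-quartile scaling, the expression-level correction or pseudocounts of 1 and 0.01. The members higher in Arntl-/- cells at all 4 times numbered 2 as deposited and 2 with the level correction (Clec4e and Clec12a), in place of 1, beside 5.70% and 7.88% of all genes, with Clec12a at a corrected ratio of 0.00 at 48 h. Those lower numbered 0 as deposited in place of 1, beside 6.98%. The count lower at 48 h in Arntl-/- cells was 0 with upper-quartile scaling and 0 at 2-fold. At 2-fold, 0 members were higher at 6 h in WT cells, and for 6, 24 and 48 h without Arntl the number higher was 0, 1 and 2. The share of all genes past 2-fold was not counted, so these counts cannot be set beside it. With the level correction the member median minus that of all genes was 0.00929 for the genotype ratio at 6 h, 0.23 for WT cells at 6 h and 0.16 for Arntl-/- cells at 48 h, in place of 0.19, 0.12 and 0.45. Without size factors the median change of all genes lay as far from 0 as -0.19 (Arntl-/- cells at 48 h). Of 80 member values, 32 moved beyond their counting interval as deposited, 37 with the level correction and 3 with upper-quartile scaling. Shares of genes past 1.5-fold in 1 direction ranged from 1.58% to 16.7%, from 8.79% to 22.1% of 15855 genes with an FPKM of at least 1, from 6.74% to 16.6% of all 24016 genes, and from 0.535% to 23.8% as deposited. Of 20 counts for the signalling partners, 5 moved by over 1.5 times as deposited and 6 with the level correction, and of 20 for the other lectins 6 and 7. The level correction of these lists was chosen after seeing the data. Of the 3 genes most alike to each member, at least 2 were shared with values as deposited for 5 of 8 members. The paired limma fit over the 4 times was chosen after seeing the data. It called 0 receptors with the level correction and without any 1 pair. Without 1 pair it called 21 genes (6 h left out) to 41 (48 h left out) in place of 37, and the adjusted p of Arntl, 0.0101, became 0.0548 without 0 h and 0.0927 without 6 h. Samples could not be blocked by replicate number, since each condition had 1 library.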

Other observations

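Of the 49 other C-type lectin genes, 41 were below the level of the genes analyzed, and 38 of them had at most 100 reads in every library. At 2 or more times 16 of the 41 (39.0%) stood past 1.5-fold on the same side of WT, beside 25.3% of all genes below that level. Among genes with a read in some library it was 16 of 28 (57.1%) beside 44.9%, so that such differences were frequent at these low counts, and 11 of the 16 had 3 or fewer reads in some library (Clec1b, Clec2g, Clec3b, Clec4b1, Clec10a, Clec12b, Clec14a, Cd209c, Cd209g, Selp and Klrb1f). Above that floor, Clec2i was at 10.1, 9.04, 20.8 and 14.7 scaled FPKM in WT cells at 0, 6, 24 and 48 h and at 25.9, 18.1, 32.6 and 24.3 in Arntl-/- cells, from 44 to 183 reads, and was higher without Arntl at each time. Cd209f, a relative of the DC-SIGN gene, was at 15.9, 11.4, 11.4 and 17.7 in WT cells and at 2.62, 2.86, 1.45 and 4.25 in Arntl-/- cells, from 4 to 61 reads, and all WT libraries lay above all Arntl-/- libraries. Its neighbour in name Cd209g was at 3.51, 4.57, 11.7 and 4.18 in WT cells and at most 1.45 in Arntl-/- cells, from at most 24 reads. Olr1 (LOX-1) was past 1.5-fold higher in Arntl-/- cells at 6 and 24 h, with 24 to 114 reads, and Mrc2 was past 1.5-fold lower at 6 and 48 h, with 24 to 88 reads. Each value is from 1 library, with no replicate check.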
